A study of Mus musculus with 4 samples.

Results

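In mouse liver RNA, 1227 peaks of N6-methyladenosine (m6A) lay on 1085 genes with a peak in livers of Alkbh5flox/flox mice (FF) and none in livers of Alkbh5-HKO mice (HKO). A peak was a member if its gene symbol in the FF peak list occurred in no row of the HKO peak list. These genes are called FF-only below, and genes with the reverse pattern HKO-only. The members were 8.73% of the 14057 FF peaks, and the 2 lists together held 28750 peaks. The genes were 13.0% of the 8376 genes in the FF list and 11.2% of the 9650 genes with a peak in either list, beside 13.2% that were HKO-only. The members were chosen by the presence of a peak in the FF list and its absence from the HKO list, so that all values given for them are a description without a test.

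The assay was methylated RNA immunoprecipitation sequencing (MeRIP-seq), in which fragments bound by an m6A antibody (IP) are sequenced beside the unselected input. The HKO group consisted of livers of Alkbh5-HKO mice and the FF group of livers of mice with floxed Alkbh5 alleles, both 9 weeks old and on normal chow. RNA of 3 mice was pooled for each genotype, which gave 1 IP and 1 input library per genotype and no replicate. The labels do not spell out HKO, and the sources used here do not name the driver of the deletion. The lists hold no read totals, so depth is unknown, and a missing peak does not show that a transcript was unmethylated. Fewer cells of a type and less RNA per cell cannot be told apart in such bulk samples. The sources also disagree on the antibody and the library kit, and do not state whether strand was kept, so that reads of overlapping or antisense genes cannot be told apart. Alkbh5, the targeted gene, was itself a member, with 0 HKO peaks and 3 FF peaks, which had folds of 18.8, 5.22 and 8.05 over input and log10 q of -4.05, -10.1 and -17.0, where a more negative value is a stronger peak. Its absence from the HKO list goes with the label, but the lists hold no measure of RNA abundance, and the sources used here do not state which part of the gene was deleted.

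m6A is written onto messenger RNA by a methyltransferase complex, mostly near the stop codon and in long internal exons, and is removed by the demethylases ALKBH5 and FTO. The antibodies used for m6A also bind m6Am, a related mark on the base beside the cap of transcripts that begin with adenosine, which lies at the very start of the RNA. Peaks at gene starts in such data can therefore hold either mark.

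The sequences around the annotated start are shown for 8 FF-only genes, because many FF-only peaks lay at the gene start. They are the first 8, in order of q, of those among the 12 FF-only genes of smallest q that had a peak at the start and an entry in the RefSeq promoter table (GRCm38.p6). Each runs 5′ to 3′ on the transcribed strand from 20 bases before the start, and the capital marks the first annotated transcribed base.
Mpc2: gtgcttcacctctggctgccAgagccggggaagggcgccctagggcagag
Alb: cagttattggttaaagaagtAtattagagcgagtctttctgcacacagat
Apoc4: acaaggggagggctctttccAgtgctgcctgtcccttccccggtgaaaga
Gch1: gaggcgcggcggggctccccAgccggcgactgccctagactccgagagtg
Ndufb7: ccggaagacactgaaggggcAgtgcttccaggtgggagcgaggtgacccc
Igfbp2: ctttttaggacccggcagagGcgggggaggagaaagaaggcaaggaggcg
Tmem160: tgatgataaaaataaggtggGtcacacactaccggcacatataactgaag
Psmb4: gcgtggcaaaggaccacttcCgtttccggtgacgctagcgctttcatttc
The windows lie on the plus strand at chr1:165461240-165461289 for Mpc2, chr5:90460850-90460899 for Alb, chr8:83566738-83566787 for Ndufb7, chr1:72824460-72824509 for Igfbp2 and chr7:16452759-16452808 for Tmem160. Those on the minus strand are chr7:19681431-19681480 for Apoc4, chr14:47189384-47189433 for Gch1 and chr3:94886929-94886978 for Psmb4. The first base was A in Mpc2, Alb, Apoc4, Gch1 and Ndufb7, G in Igfbp2 and Tmem160, and C in Psmb4. The 5′ edge of the peak lay exactly on the capital letter in Mpc2, Apoc4, Gch1, Ndufb7 and Psmb4, 30 bp after it in Alb and Igfbp2, and 177 bp after it in Tmem160.

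FF-only peaks were concentrated at gene starts. Of 1224 FF-only peaks that could be placed along an annotated gene, 452 (36.9%, 95% Wilson interval 34.3 to 39.7) had the centre of their exonic sequence within 500 bp of the gene start. The share was 12.9% (12.4 to 13.5) among the other 12824 placed FF peaks and 5.93% (4.84 to 7.25) among the 1484 placed peaks of HKO-only genes. These intervals cover counting error only, and with 1 pool per genotype the differences have no replicate check. Within 200 bp of the start the shares were 26.6% of FF-only, 7.89% of other FF, 3.64% of HKO-only and 4.44% of other HKO peaks. Counted by gene, 450 of 1082 FF-only genes (41.6%, 38.7 to 44.6) had a start peak, against 1639 of 7287 other FF genes (22.5%) and 87 of 1272 HKO-only genes (6.84%).

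A high start share was also found outside the FF-only genes. FF peaks that overlapped no HKO peak, on genes that had peaks in both lists, stood at 33.6% (776 of 2312, 31.7 to 35.5), a value whose interval overlapped that of the FF-only peaks. These FF-specific peaks are a subset of the other FF peaks. They had been set apart by their own absence from the HKO list, as the FF-only peaks were. By their centre, 302 FF-only peaks (24.7%, 22.3 to 27.2) lay within 1000 bp of the annotated gene end, against 26.7% (26 to 27.5) of other FF peaks, 13.0% of FF-specific peaks and 41.9% (39.4 to 44.4) of HKO-only peaks. Other HKO peaks stood at 29.7% (28.9 to 30.5). Counted by gene, an end peak was present on 27.2% of FF-only genes, 42.9% of other FF genes and 46.7% of HKO-only genes. Both a start and an end peak were present on 40 FF-only genes, and 378 had neither.

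**Figure D1:**
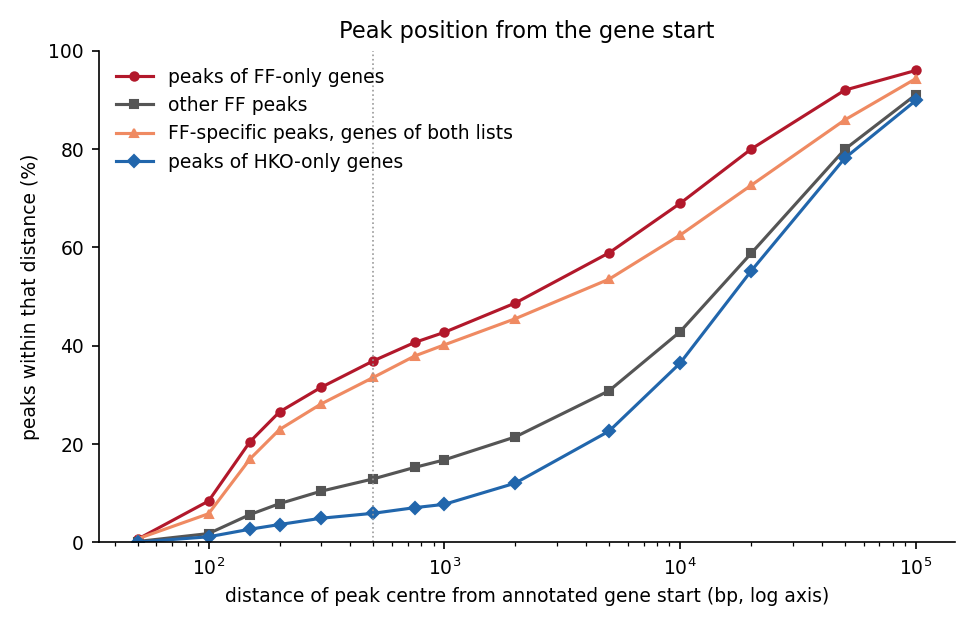
Share of peaks (%, vertical axis) whose centre lies within a given distance of the annotated gene start (bp, log axis), for peaks of FF-only genes, other FF peaks, FF-specific peaks on genes of both lists and peaks of HKO-only genes; the dotted line marks 500 bp. At that line the curves stand at 36.9%, 12.9%, 33.6% and 5.93%, and the FF-only curve is the highest of the 4 at 500 bp.

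The start share differed with the strength of the peak. Strength is given here by log10 q, the logarithm of the authors' q-value for IP over input, where more negative is stronger. Among FF-only peaks at a log10 q of -10 or less, 87 of 148 (58.8%, 50.7 to 66.4) were at the start, and the share was 47.7% from -10 to -5, 33.3% from -5 to -3 and 29.3% above -3. Other FF peaks had the opposite order, with 11.1%, 12.7%, 13.8% and 17.3% in the same classes. FF-specific peaks on genes of both lists followed the FF-only order (55.4%, 38.7%, 31.9% and 28.0%), and HKO-only peaks had 2.92%, 4.56%, 5.93% and 7.81%. The classes were chosen after the lists were seen.

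**Figure D2:**
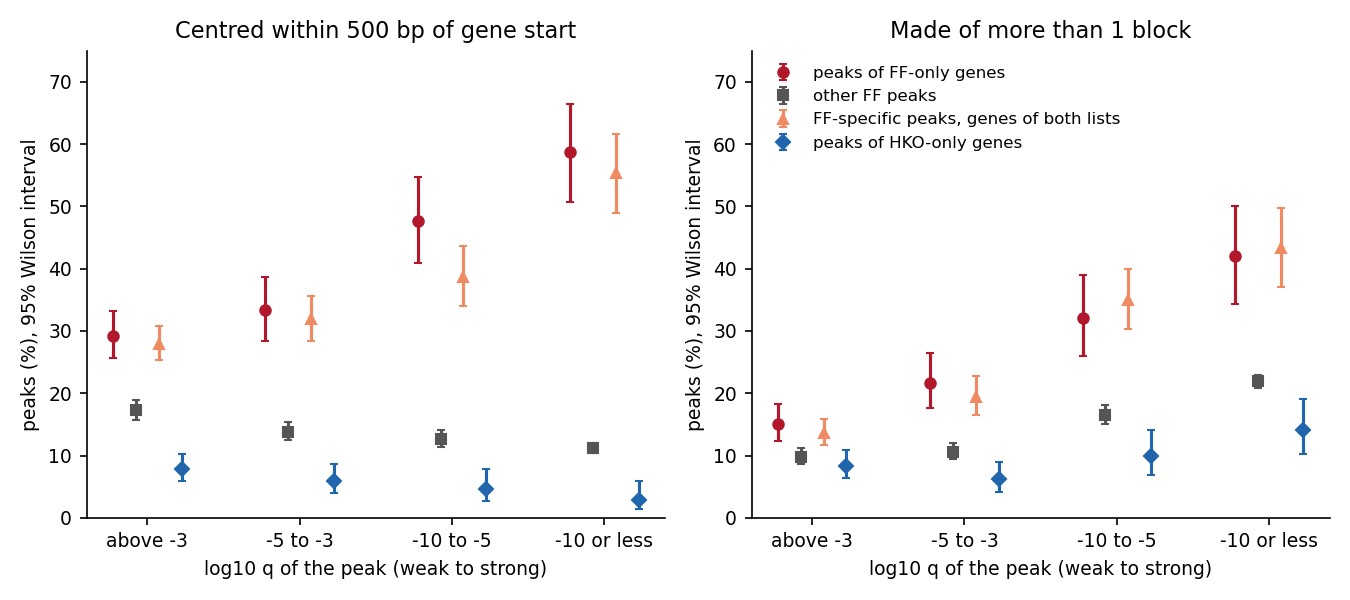
Share of peaks (%, with 95% Wilson intervals) centred within 500 bp of the gene start (left) and made of more than 1 exon block (right), by log10 q class from weak to strong, for the 4 sets named in the legend. In the strongest class the FF-only points stand at 58.8% and 42.0%, against 11.1% and 21.9% for other FF peaks, 55.4% and 43.3% for FF-specific peaks and 2.92% and 14.2% for HKO-only peaks.

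Many start peaks began at the first annotated base itself. The 5′ edge coincided with the annotated start in 124 of the 452 FF-only start peaks (27.4%, 23.5 to 31.7), and lay within 30 bp of it in 210 (46.5%). Other FF start peaks had 32.8% and 52.0%, and the 88 HKO-only start peaks 17.0% and 37.5%. The median distance from start to centre was 148 bp in FF-only start peaks and 165 bp in both other sets. The caller the authors used searches annotated exons, so an edge on the annotated start can also be the limit of the search, and the position of the true 5′ end was not tested.

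The first transcribed base of FF-only genes with a start peak was A about as often as in the other gene sets with a peak, within counting error. Of the 450 genes, 280 had a promoter entry whose start was that of the gene span, and 93 of these (33.2%, 28.0 to 38.9) began with A and 45.0% with G. The A share was 31.2% (26.1 to 36.8) in 282 FF-only genes without a start peak, 31.5% in 907 other FF genes with one and 29.3% in all 3767 FF genes with an entry, against 36.7% of the 19827 genes in the table. The motif GGACT, a frequent m6A sequence, was searched on the transcribed strand in the first 50 transcribed bases, where it overlaps no other searched motif. It occurred in 9 of the 280 FF-only genes with a start peak (3.21%, 1.70 to 5.99), 7.09% (4.64 to 10.7) of FF-only genes without one, 5.57% of all FF genes with an entry and 5.94% of the table. These are matches of letters at annotated starts, and whether they are methylated was not tested.

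FF-only peaks were short. Their median exonic length was 151 bp (interquartile range 121 to 208, range 85 to 745), against 270 bp (180 to 418) for other FF peaks and 151 bp (120 to 211) for HKO-only peaks. FF-specific peaks on genes of both lists also had 151 bp (121 to 210). The gap to other FF peaks depended on strength, and was small or absent among weak peaks and widest among the strongest. For FF-only and other FF peaks, the medians were 121 and 121 bp above a log10 q of -3. They were 180 and 181 bp from -5 to -3, 208 and 240 bp from -10 to -5, and 211 and 390 bp at -10 or less. FF-only peaks at the start had a median of 177 bp and those elsewhere 151 bp. Other FF peaks had 209 bp at the start and 271 bp elsewhere.

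Peaks that spanned exon junctions made up a higher share of FF-only peaks than of other FF peaks or HKO-only peaks. A peak is listed with the number of exon blocks it covers, and 281 of the 1227 (22.9%, 20.6 to 25.3) had more than 1 block, against 16.9% (16.3 to 17.6) of other FF peaks, 21.7% of the FF-specific peaks on genes of both lists and 8.95% (7.60 to 10.5) of HKO-only peaks. FF-only peaks with 1, 2, 3 and 4 or more blocks numbered 946, 235, 41 and 5. Those of 4 or more were Cd99 on an unplaced scaffold with 6, Syf2 and Sdsl with 5, and Fkbp4 and Col5a3 with 4. Away from the start the share was 19.7% of FF-only peaks, 14.7% of other FF peaks and 7.88% of HKO-only peaks. At the start it was 28.3% of FF-only peaks, below the 31.6% of other FF peaks, and 26.1% of HKO-only peaks. In the class of log10 q of -10 or less, 42.0% of FF-only peaks had more than 1 block, against 21.9% of other FF peaks and 43.3% of FF-specific peaks on genes of both lists.

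Most FF-only genes carried a single peak. There were 956 genes with 1 peak (88.1%, 86.0 to 89.9), 117 with 2, 11 with 3 and 1 with 4. A single peak was found on 51.2% of the other FF genes, which had up to 10, and on 85.9% of the HKO-only genes. When FF-specific peaks alone were counted, 85.5% of the 1984 genes of both lists that carried them had 1. A gene with many FF peaks has more chances to share 1 with the HKO list, so the rule itself favours genes with few. Of the 129 FF-only genes with more than 1 peak, 68 had a peak at the start, 54 had 1 at the end and 25 had both. In 18 of them neighbouring peaks lay under 200 bp apart.

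**Figure D3:**
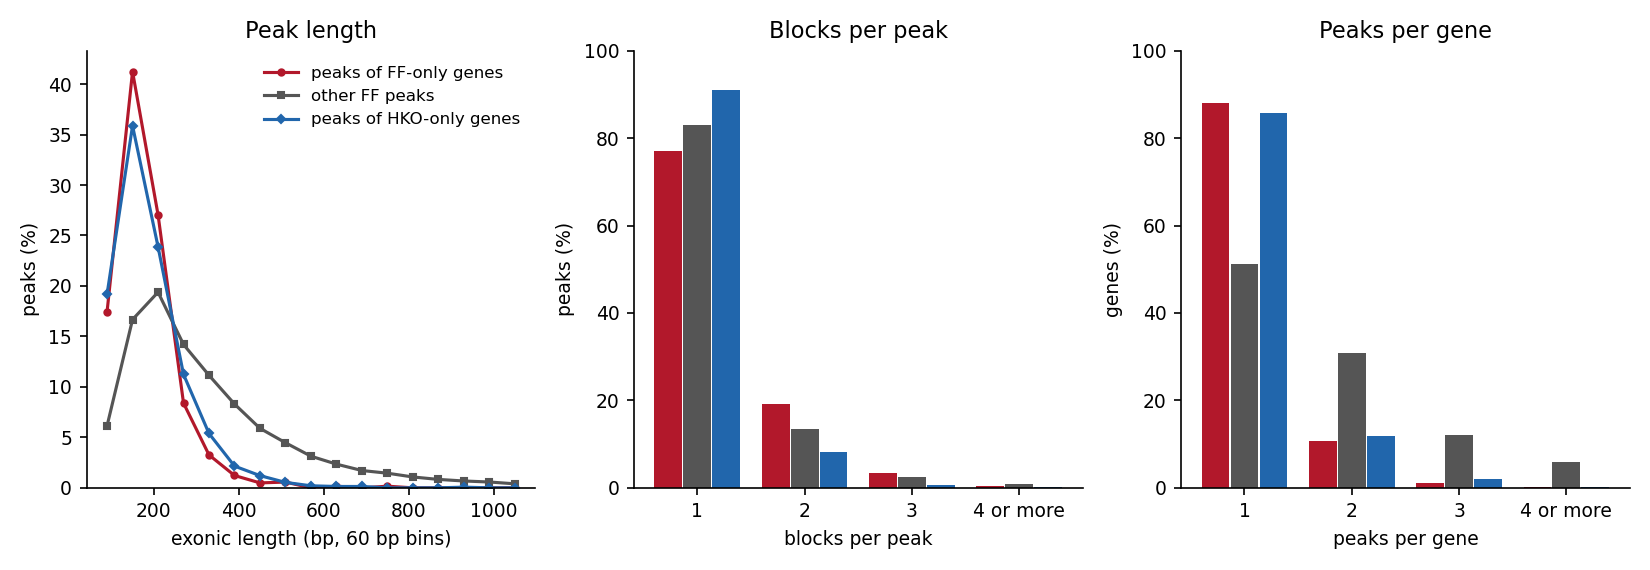
Peak length as summed exon blocks (left, share of peaks in bins of 60 bp), number of blocks per peak (middle) and number of peaks per gene (right), in % of peaks or genes, for FF-only genes, other FF peaks or genes, and HKO-only genes. FF-only peaks have a median of 151 bp, 281 of 1227 with more than 1 block, and 956 of 1085 genes with 1 peak.

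The FF-only peaks were mostly weak, with a strong tail. The fold enrichment of IP over input and the q-value are the authors' own values for each peak and serve here to rank peaks within the FF list. FF-only peaks had a median log10 q of -3.17, against -8.86 for other FF peaks, and 349 (28.4%, 26 to 31.0) reached a q of 1e-05, against 65.6%. The median fold was 9.01 (interquartile range 3.94 to 12.5, range 1.18 to 61.9), close to the 8.78 (4.50 to 15.3) of other FF peaks. FF-only start peaks had a median fold of 7.44 and the others 9.86. HKO-only peaks had a median log10 q of -3.50, and 33.9% of them reached a q of 1e-05. FF-specific peaks on genes of both lists had -3.17 and 26.5%, near the values of FF-only peaks.

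The FF-only peaks of smallest q lay on the following genes. Apoa2, an apolipoprotein of high-density lipoprotein, had a peak of 2 blocks and 118 bp with a q below the smallest number the list could hold (fold 2.63), centred 1081 bp from the gene end. Mpc2, which encodes part of the carrier that brings pyruvate into mitochondria, followed with a log10 q of -206 and a fold of 7.48, centred 105 bp from the start. Alb, the gene of serum albumin, had a 2-block peak with a log10 q of -175 and a fold of 1.57, also 105 bp from the start. The fold of Alb was among the lowest and its q among the smallest, so that rank by fold and rank by q give different genes.

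Apoc4, a minor apolipoprotein, had a log10 q of -163 and a fold of 4.98 at 86 bp from the start. Its peak also overlapped peaks of the predicted gene Gm44805 in both lists, so that HKO reads were enriched at that place under another symbol. Gch1, the first enzyme of tetrahydrobiopterin synthesis, had a log10 q of -85.6 and a fold of 4.22 at 164 bp. Psmb4, a subunit of the proteasome core, had -58.5 and 5.30 at 89 bp, and Pgrmc1, a haem-binding membrane protein, -55.8 and 2.50 at 89 bp.

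A few of the strongest genes had their main peak away from the start. Igfbp2, a carrier of insulin-like growth factors, had a 2-block peak with a log10 q of -61.9 and a fold of 2.27, and a weak start peak with -3.37 and 1.34. Tmem160 had its main peak 162 bp from the gene end (-60.9, fold 5.07) and a second at 280 bp from the start (-11.5, fold 4.10). Ndufa2, a complex I subunit, had a log10 q of -60.9 and a fold of 2.57 at 229 bp from the end.

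Ppp1cc, a catalytic subunit of protein phosphatase 1, held the highest fold of the FF-only peaks, 61.9 at a log10 q of -56.8, in a 2-block peak centred 3510 bp from the start. Next by fold among peaks with a q of 1e-05 or less were a copy of Ptpmt1 on an unplaced scaffold (40.7), Abhd8 (35.2), Tmem59 (34.5), the long non-coding RNA gene Gm33531 (32.9), Ripor3 (31.3), Sft2d1 (29) and Gm34490 (29). Tmem59 and Sft2d1 were centred 149 bp and 132 bp from the start, while Abhd8, Ripor3 and Gm34490 lay 401 bp, 329 bp and 235 bp from the end. The Gm33531 peak overlapped peaks of Rapgef3 in both lists, and cannot be assigned to 1 of the 2 genes. The exact pairs of fold and log10 q of Abhd8, Gm33531 and Ripor3 were held by 15, 13 and 16 FF peaks, so these values are not particular to those genes.

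**Figure D4:**
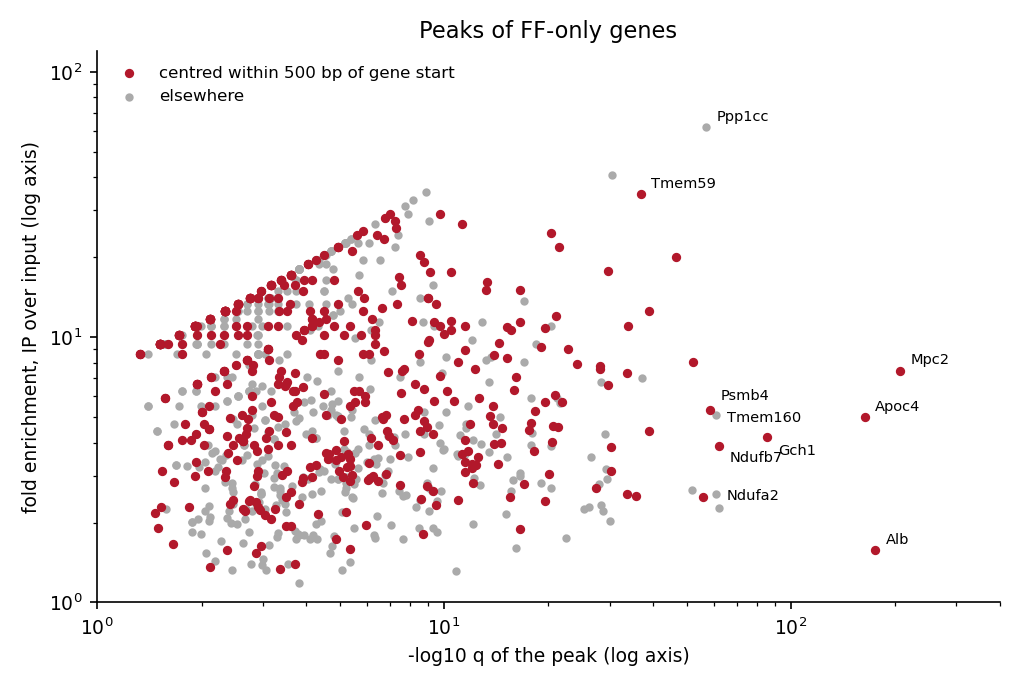
Fold enrichment (IP over input, log axis) against -log10 q (log axis) for each FF-only peak, with peaks centred within 500 bp of the gene start in red and the others in grey. Alb lies at a fold of 1.57 and Mpc2 at 7.48 at the strong end, Ppp1cc is the highest at 61.9, and Apoa2 is not drawn because its log10 q is listed at minus infinity.

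Among the FF-only genes Mib2 had the most peaks, and 11 genes, Alkbh5 among them, had 3. Mib2, an E3 ubiquitin ligase that acts on Notch ligands, had 4 peaks, all with log10 q between -3.92 and -2.10. The strongest was centred 9731 bp from the start and another 164 bp from it.

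Rnf130, a RING-type ubiquitin ligase, had a strong peak at 105 bp from the start (-20.9, fold 6.07) and a pair of weak ones far downstream. Tsen34, a subunit of the tRNA splicing endonuclease, had all of its peaks between 675 and 1615 bp from the start, the strongest at a log10 q of -11.6. Gnb2, a G protein beta subunit, Dalrd3, Cmtm3 and Paip2, an inhibitor of poly(A)-binding protein, had at least 1 peak of a log10 q between -9.86 and -3.51. Pitx3, a homeobox gene, had its 3 peaks centred 328 to 1116 bp from the gene end, with a strongest log10 q of -9.28, and 1 of them overlapped an FF peak of Elovl3. Aoc2 and the predicted gene Gm45301 had peaks with log10 q no lower than -4.50.

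Gene families were then set beside the 11.2% of all genes that were FF-only. Families were drawn by symbol pattern, and 331 FF-only genes fell into 1 of 41 families. Of the 16 families with at least 5 FF-only genes, 12 had an FF-only share above that of all genes, 5 an interval wholly above it and 2 wholly below. The 5 were the 2 respiratory chain sets, the proteasome, the apolipoproteins and the predicted and RIKEN genes, and the 2 were zinc finger and solute carrier genes. The 16 were kept by their number of FF-only genes, which itself favours families with a high FF-only share. Over all 41 families, the interval lay wholly above the share of all genes in 8 and wholly below it in 2.

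Respiratory chain genes had the highest FF-only shares among these 16 families. Of 30 genes of complexes II to V with a peak, 12 were FF-only (40.0%, 24.6 to 57.7), 4 HKO-only and 14 in both lists. Of 28 complex I genes, which oxidise NADH, 10 were FF-only (35.7%, 20.7 to 54.2), 2 HKO-only and 16 in both. Of these FF-only genes, 9 of 12 and 8 of 10 had a start peak. Among the genes in both lists, an HKO start peak was present on 1 and an FF start peak on 5 of 14 for complexes II to V, and on 8 and 13 of 16 for complex I.

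The complex I members included Ndufb7 (log10 q -62.2, fold 3.90, with a second peak at 88 bp from the end), Ndufa2, Ndufs6 (-33.6, 7.32), Ndufb8 (-29.7, 6.61), Ndufb6 (-19.6, 2.41), Ndufb2 (-17.0, 2.79), Ndufc2 (-7.49, 6.17), Ndufs8 (-6.94, 4.25) and the assembly factor gene Ndufaf8 (-2.46, 2.44). Of these named genes, each except Ndufa2 had a peak centred 73 to 176 bp from the start. Complexes II to V were represented by Sdhb and Sdhd of complex II, Cyc1 and Uqcrh of complex III, Cox7b, Cox5a, Cox5b and the copper chaperone gene Cox17 of complex IV, and Atp5j2, Atp5b, Atp5j and Atp5h of the ATP synthase. Cox17 (-27.5, 2.70) and Cyc1 (-20.1, 3.05) were centred 146 and 105 bp from the start, and Atp5j2 (-29.3, 3.17) lay 4340 bp from the annotated start. Of the 13 peaks in these 12 genes, 11 spanned more than 1 block, against 5 of 12 in complex I.

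Proteasome genes showed a like arrangement. Of 27 with a peak, 8 were FF-only (29.6%, 15.9 to 48.5), 2 HKO-only and 17 in both lists, and 7 of the 8 had a start peak. They covered the core (Psmb4, Psmb5, Psmb7, Psma7), the regulatory particle (Psmc2, Psmd1), its assembly chaperone Psmd9 and the activator Psme1. After Psmb4, the strongest were Psmc2 (-28.3, fold 6.79) and Psmd9 (-20.5, 4.04), and Psmd1 had the highest fold, 27.4 in 3 blocks at 135 bp from the start. Psmc2 was centred 1566 bp from the annotated start, and 6 of the 9 peaks spanned more than 1 block. The COP9 signalosome, a related complex that acts on ubiquitin ligases, had 4 FF-only genes of 7 (57.1%, 25 to 84.2) and 0 HKO-only. Its strongest FF-only peak, on Cops6 (-20.4, 2.69), lay 74 bp from the gene end.

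Apolipoprotein and apolipoprotein L genes had 6 FF-only of 21 (28.6%, 13.8 to 49.96) and 2 HKO-only. Apoa2, Apoc4 and Apoc3, an inhibitor of triglyceride clearance (-8.50, fold 4.41, 59 bp from the start), were the strong ones. Apol7c, Apol11b and Apold1, which shares only a domain with the others, had single weak peaks with folds of 14.1 to 14.9. Apol7c and Apol11b belong to a cluster of close copies and are uncertain. With Apoc4 removed for its overlap with an HKO peak of another symbol, the share was 5 of 20 (25%, 11.19 to 46.9), and the interval then held the 11.23% of all genes. With a log10 q of -5 or less in both lists it was 3 of 16 (18.8%, 6.59 to 43.0), beside 9.65% of all genes. The interval lay wholly above all genes in the other alternatives. A fold of 2 or more in both lists gave 7 of 21 (17.2 to 54.6%, all genes 11.9%). An HKO list of the FF list's length gave 6 of 21 (13.8 to 49.96%, all genes 12.3%). The limit on the FF list alone gave 3 of 18 (5.84 to 39.2%, all genes 3.68%).

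Genes of transcription and translation gave mixed values. RNA polymerase subunit genes had 5 FF-only of 23 (21.7%, 9.66 to 41.9), among them Polr2f (-7.54, fold 7.44) and Polr2k (-4.38, 8.62), both at the start, and Polr3g. With FF peaks limited to a log10 q of -5 or less and the HKO list whole, 1 of 19 (5.26%, 0.935 to 24.6) was FF-only. All genes had 3.68% in that setting, inside this interval. With the HKO list cut by q to the length of the FF list it was 6 of 23 (26.1%, 12.5 to 46.5). All genes then had 12.3%. Cytosolic ribosomal protein genes had 5 of 28 (17.9%) FF-only and 6 (21.4%) HKO-only, and the FF-only peaks lay mostly inside or at the end of the gene, as for Rps9 (-51.7, 2.66, 116 bp from the end) and Rpsa (-26.2, 2.29). Rpl34 (-13.2, 15.1) was the exception at 149 bp from the start. With a log10 q of -5 or less in both lists, 8 of 22 (36.4%, 19.7 to 57.0) cytosolic ribosomal protein genes were FF-only, beside 9.65% of all genes. Reads of these genes can be shared with processed pseudogenes, and their peaks are uncertain.

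Mitochondrial ribosomal protein genes had 6 of 61 FF-only (9.84%, 4.59 to 19.8), under the share of all genes, and 5 of the 6 had a start peak. Mrpl37 (-33.8, fold 11), Mrps18a (-16.6, 11.4) and Mrpl2 (-10.7, 5.74) were the strongest. Genes drawn by the symbol pattern of translation initiation factors had 5 of 42 (11.9%), namely Eif4g2, Eif4e3, Eif1ax, Eif2b5 and Eif2ak4. The last encodes a kinase that acts on an initiation factor and is not one itself. Eif4g2 was the strongest at a log10 q of -6.43, centred 90 bp from the start. The initiation factor set had 1 of 36 (2.78%, 0.492 to 14.2) with a log10 q of -5 or less in both lists. With that limit on the FF list alone it had 1 of 38 (2.63%, 0.466 to 13.5). Each value rests on 1 gene, and the intervals held the shares of all genes in those settings (9.65% and 3.68%).

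For membrane traffic and conjugation families the intervals held the share of all genes under the membership rule itself. Rab, Arf and Arl GTPases had 9 FF-only of 67 (13.4%), led by Rab2a (-19.0, fold 9.14), Arf5 (-15.6, 2.62) and Rab11a (-6.45, 3.92), and 6 of the 9 had a start peak. The conjugating enzymes had 5 of 27 (18.5%, 8.18 to 36.7), namely Gstt3 (-12.1, 4.10), Gsto1 (-6.82, 5.09), Ugt2b38 (-6.32, 10.2), Ugt2b37 and Gstm5. Members of the Ugt2b, Gstt and Gstm groups have close copies and are uncertain. Genes named only by a general pattern had 14 of 118 (Tmem, 11.9%), 8 of 82 (Fam, 9.76%) and 7 of 58 (Ccdc, 12.1%), with Tmem59, Fam241a and Ccdc12 holding folds of 34.5, 25.1 and 13.7. The exact pair of fold and log10 q of Fam241a was held by 30 FF peaks.

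Solute carriers and zinc finger genes were the families, of the 16, whose interval lay wholly below the share of all genes. Of 184 solute carrier genes with a peak, 9 were FF-only (4.89%, 2.59 to 9.03) and 30 HKO-only (16.3%). Slc25a30, a mitochondrial carrier (-12.2, fold 2.95), Slc25a33, a mitochondrial pyrimidine nucleotide carrier (-9.46, 13.3), and Slc4a1ap, which is named after an anion exchanger it binds and is no carrier (-8.50, 8.09), were the strongest. Of 279 Zfp genes, 18 were FF-only (6.45%, 4.12 to 9.97) and 20 HKO-only (7.17%), and 241 had peaks in both lists. A start peak was found on 1 of these 18 (Zfp706), and the strongest were Zfp444 (-7.15, 4.22), Zfp692 (-6.11, 6.40) and Zfp428 (-5.65, 22.7). With FF peaks limited to a log10 q of -5 or less and the HKO list whole, 4 of 179 solute carrier genes (2.23%, 0.872 to 5.60) and 4 of 265 Zfp genes (1.51%, 0.589 to 3.82) were FF-only, and both intervals held the 3.68% of all genes in that setting. Cytochrome P450 genes, which fell short of 5 FF-only members, had 3 of 50 FF-only (6.0%, 2.06 to 16.2) and 21 HKO-only (42.0%). The 3 were Cyp4f13, Cyp4f15 and Cyp4f16, close copies whose reads may be shared.

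**Figure D5:**
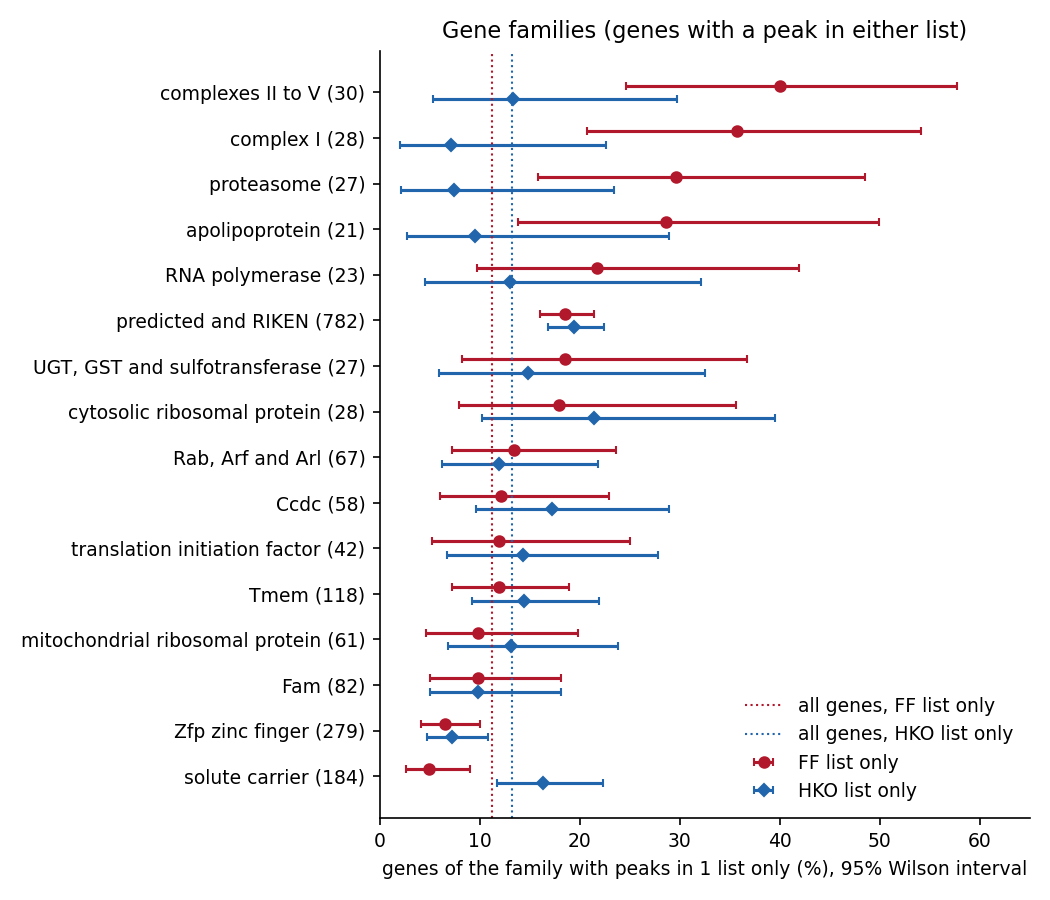
Share of genes (%, with 95% Wilson intervals) in each of the 16 families with at least 5 FF-only genes, with peaks in the FF list only or in the HKO list only, of the genes with a peak in either list (number in brackets); dotted lines mark all genes, at 11.2% and 13.2%. Complexes II to V (40.0% against 13.3%) and complex I (35.7% against 7.14%) stand highest among them, and solute carriers have the lowest FF-only share (4.89% against 16.3%).

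Predicted and RIKEN genes, which carry a provisional symbol, made up 145 of the 1085 FF-only genes. They were FF-only in 18.5% (16.0 to 21.4) and HKO-only in 19.4% of 782 genes with a peak, both above the shares of all genes. With FF peaks limited to a log10 q of -5 or less and the HKO list whole, 22 of 659 (3.34%) were FF-only, below the 3.68% of all genes in that setting. The strongest were 1300017J02Rik (-39.0, fold 4.41, 103 bp from the start), Gm36629 (-21.2, 5.87) and Gm31834 (-16.1, 7.05). The peaks of Gm36629 and Gm31834 overlapped FF peaks of B3gat3 and Txndc5.

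By annotated gene type, long non-coding RNA genes carried 155 of the FF-only peaks (12.6%, 10.9 to 14.6), against 4.05% of other FF peaks and 9.56% of HKO-only peaks. Of these 155 peaks, 27.7% were at the start and 36.8% at the end, and their median fold was 12.5. FF-only genes were also short, with a median span of 16298 bp, against 22906 bp for other FF genes and 23580 bp for HKO-only genes. In a short gene the windows at start and end cover a larger share of the span.

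Markers of liver cell types were spread over both single lists. Of all genes with a peak in either list, 11.2% were FF-only and 13.2% HKO-only. Each marker list is too short for its counts to be told apart from those shares. Of 11 hepatocyte markers on either list, Alb was FF-only, Ttr, Cps1 and Cyp2e1 were HKO-only and 7 were in both lists. Of 6 Kupffer cell and macrophage markers, Lyz2 was FF-only (-16.6, fold 15, 58 bp from the start) and Mrc1 HKO-only. Ecm1, Muc1 and Itgax were the FF-only markers of stellate cells, cholangiocytes and leukocytes, beside Col1a1 and Dcn, Spp1, and S100a9 as HKO-only. Each of the 7 endothelial markers found in either list was found in both. The lists give no RNA levels, and a part of cell composition in the FF-only set was not tested.

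The weakest FF-only genes were 8 whose strongest peak had a log10 q of -1.33, among them Ccdc160, Nucb2 and Prag1, each with a fold of 8.62. Npr3, Nynrin and Ints13 were kept out by a single HKO peak at log10 q of -1.5, -1.5 and -1.52, with folds of 9.33, 9.33 and 3.82. Their best FF peaks had log10 q of -4.27, -2.54 and -2.75, within the range of the members.

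The rule went by symbol, and symbols can hide overlaps. Of the 1227 FF-only peaks, 9 overlapped an HKO peak of another symbol on either strand and 2 did so on the same strand, on Apoc4 and Hyal3. A further count found 118 peaks on 112 FF-only genes that overlapped an FF peak of another symbol, so that 1 enriched stretch was listed under both. The symbols Tmem134_1 and Ptpmt1_1 carry a copy suffix.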

How the data were processed

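Per the series design text, exomePeak 2.16.0 was the authors' peak caller, run separately on HKO and on FF with the input as control, and peaks were kept up to a q-value of 0.05. Of the other tools, HOMER 4.9.1, BWA 0.7.12 and fastp 0.19.11 are named in the submitters' processing notes, with GRCm38.p6 as the build. The deposited score column was read as a p-value, since its logarithm matched the separate log10 p-value column, and q is deposited as a log10 score. Fold enrichment is the authors' deposited ratio of IP over input. Library depth is unknown.

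From these lists, symbols were compared between the lists, exon blocks were summed to an exonic length, and peak centres were placed along RefSeq gene spans (3 FF-only peaks had no position). Overlap needed 1 bp. Shares carry 95% Wilson intervals. No test was run, since each genotype had 1 pool. The steps were tested on simulated data. The scripts ran on Python 3.11.15 with scipy 1.17.1, numpy 2.4.6 and pandas 2.3.3, and figures were drawn with matplotlib 3.10.9.

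Members, families and markers were chosen with earlier results of these data known. Named genes were the 12 of smallest q, the 8 of highest fold at a log10 q of -5 or less, up to 12 with 3 or more peaks, the 3 of smallest q in each family with 5 or more FF-only genes, FF-only markers, Alkbh5, and 3 genes on each side of the rule. Further members of the respiratory chain families, and all of the proteasome, apolipoprotein, initiation factor and conjugation families, the COP9 and cytochrome P450 genes, Zfp706, and the genes with 4 or more blocks or with overlaps were named after their values were seen. Alternatives changed the q, fold and length of the lists, the meaning of absence, the windows and the length measure. Motif shares inside peaks were not run, since no genome sequence was used. Results for some genes are not reported here.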

Additional observations from a re-analysis of the deposited data

How the results depend on the processing

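With a log10 q of -5 or less in both lists, 706 genes and 763 peaks were FF-only (11.5% of FF genes), 92.6% of the genes had 1 peak, 28.7% of the peaks had more than 1 block, and medians were 238 bp and a fold of 8.09. With that limit on the FF list and the HKO list whole, 327 genes and 349 peaks remained (5.31%), 52.4% of the peaks were at the start and 19.0% at the end, 93.3% of the genes had 1 peak, 36.4% of the peaks had more than 1 block, and medians were 210 bp and a fold of 4.86. A fold of 2 or more in both lists gave 13.8% of FF genes and 178 bp, and an HKO list of the FF list's length 14.0%. Windows of 200 bp gave 26.6% at the start and 6.37% at the end, and length as genome span 180 bp. The start share was 35.3% in FF-only, 11.1% in other FF and 3.70% in HKO-only peaks with the limit on both lists, and the order of the 3 sets was the same under each of the 5 alternatives to the membership rule. Families above all genes numbered 10 to 13 of 16 under these alternatives, against 12. The FF-only share ranged from 33.3% to 46.4% for complex I, 28% to 40.0% for complexes II to V, and 24% to 33.3% for the proteasome. The share of all genes ranged from 3.68% to 12.3% over the same settings. It was lowest with the limit on the FF list alone, the setting that also gave the low end of each of these families. No paired analysis was possible because a single pool stood for each genotype, which also left no replicate to leave out. Depth could not be assessed from the lists.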

Other observations

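Many FF-only peaks carried exactly repeated values. A pair of fold and log10 q that was held by at least 10 FF peaks was found on 509 FF-only peaks (41.5%, 38.8 to 44.3), against 2219 other FF peaks (17.3%). The HKO list had the same arrangement, with 631 of its HKO-only peaks (42.5%) and 19.5% of its other peaks on such pairs. The commonest FF pair, a fold of 12.5 with a log10 q of -2.33, was listed for 171 peaks, of which 49 were FF-only. FF-only peaks on repeated pairs had a start share of 25.7% (22.1 to 29.7) and those on other pairs 44.9% (41.3 to 48.6). The commonest pairs lie along the slanted upper edge in the plot of fold against q. What gives rise to them was not tested.

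Smaller families held further FF-only genes. All genes had 11.2% FF-only and 13.2% HKO-only. Snrp and Lsm genes of the spliceosome had 4 of 11 FF-only (36.4%, 15.2 to 64.6) and small nucleolar RNA host genes 3 of 5. Mitochondrial import genes had 4 of 19 (21.1%, 8.51 to 43.3), and Hnrnp and Srsf genes 3 of 24 (12.5%, 4.34 to 31.0). Both of these intervals held the share of all genes. Each had 0 HKO-only, with intervals up to 16.8% and 13.8%. Shares below that of all genes were found, among others, for DnaJ and heat shock genes (1 of 44, 0.402 to 11.8%). TNF receptor and interleukin genes had 1 of 40 (0.443 to 12.9%), ubiquitin-specific protease genes 1 of 35 (0.506 to 14.5%) and F-box genes 2 of 41 (1.35 to 16.1%). All of these intervals held the share of all genes. The import genes were Tomm22, Timm10b, Timm17b and Tomm6os, the last an antisense gene whose peak overlapped an FF peak of Tomm6. FF-only peaks made up 6.18% to 12.2% of the FF peaks of each chromosome from 1 to X, with the lowest share on chromosome 12 and the highest on chromosome X.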
